A study of Rattus norvegicus with 12 samples.

Results

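The aryl hydrocarbon receptor (AHR) pathway was followed through 9 genes in the mammary glands of ovariectomized rats. These were Ahr, which encodes the receptor, its dimer partner Arnt, its repressor Ahrr, and the target genes Cyp1a1, Cyp1a2, Cyp1b1, Tiparp, Nqo1 and Aldh3a1. A probe set is a group of array probes read as 1 value, and each gene was taken from the probe set that carries its symbol alone. Of the 9 genes, 8 had such a probe set and each had exactly 1, among 14506 genes named in this way and 29214 probe sets in all. Tiparp had none in the annotation used and has no value here. The 20th percentile of the mean log2 intensity served as a filter on low values, and 7 of the 8 lay above it. Cyp1a1 lay below it, at percentile 13.3, and is therefore described rat by rat, with a p value only from the fit without the filter.

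Each of the 4 groups held 3 female Lewis rats, and 1 array was run for each rat. The groups received 17β-estradiol (E2) together with 3-methylcholanthrene (3-MC), 3-MC alone, E2 alone, or the DMSO vehicle in castor oil. E2 was given at 4 μg/kg/day. The dose of 3-MC, an AHR ligand of the polycyclic aromatic hydrocarbon class, was 15 mg/kg/day. All 12 rats, controls included, had been ovariectomized at about 10 weeks of age and were dosed subcutaneously 3 times at intervals of 24 hr, starting 14 days after surgery. Glands were removed 24 hr after the final dose, and the labels give the treatment time as 48 h. The values are linear intensities of whole glands, and 16 was added before log2 was taken. A gene passed at a Benjamini-Hochberg adjusted p below 0.05 over the 23371 probe sets tested with limma, together with a difference of at least 1.5-fold. In whole-gland RNA, fewer cells of a type and less RNA per cell cannot be told apart.

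As background, the AHR rests in the cytoplasm in a complex with HSP90 and p23, moves to the nucleus when a ligand binds, and there pairs with ARNT on DNA. Among the genes that the pair switches on are the CYP1 enzymes, which oxidize polycyclic aromatic hydrocarbons and estradiol, and AHRR and TIPARP, which dampen the receptor in turn. CYP1B1 is the family member best known from extrahepatic and steroid-responsive tissue such as the breast, whereas CYP1A2 is mainly a liver enzyme.

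The core of the xenobiotic response element, the DNA sequence bound by the AHR and ARNT, is GCGTG. It was searched on both strands in the RefSeq promoter windows of GRCr8, which run from 250 bases before to 50 bases after a gene's start. Of the 7 members with a window in the table, 5 held GCGTG and 2 held the longer form TNGCGTG, which contains GCGTG, where N is any base. Over all 33469 windows the shares were 29.7% and 4.89%. Ahrr had 3 matches to the core, which 3.59% of all windows equal or exceed, and Cyp1b1 had 2, which 10.2% equal or exceed. Nqo1, Arnt and Tiparp had 1 each, and Ahr and Cyp1a2 had none. The 250 bases before the start are shown for Ahrr, Cyp1b1 and Nqo1, since the array results turn on these 3 genes, with the core or its reverse complement CACGC in capitals. They lie at chr1:30821969-30822218 on the plus strand for Ahrr, chr6:21094315-21094564 on the plus strand for Cyp1b1 and chr19:52220268-52220517 on the minus strand for Nqo1.
Ahrr: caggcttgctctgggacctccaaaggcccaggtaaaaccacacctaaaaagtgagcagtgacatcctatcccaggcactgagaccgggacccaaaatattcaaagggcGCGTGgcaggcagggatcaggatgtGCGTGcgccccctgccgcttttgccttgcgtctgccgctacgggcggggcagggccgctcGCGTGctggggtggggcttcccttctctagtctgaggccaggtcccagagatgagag
Cyp1b1: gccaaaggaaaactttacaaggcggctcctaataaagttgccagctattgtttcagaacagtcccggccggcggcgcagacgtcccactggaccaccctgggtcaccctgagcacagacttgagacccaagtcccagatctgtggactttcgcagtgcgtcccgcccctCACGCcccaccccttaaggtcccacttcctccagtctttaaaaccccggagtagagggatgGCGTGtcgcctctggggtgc
Nqo1: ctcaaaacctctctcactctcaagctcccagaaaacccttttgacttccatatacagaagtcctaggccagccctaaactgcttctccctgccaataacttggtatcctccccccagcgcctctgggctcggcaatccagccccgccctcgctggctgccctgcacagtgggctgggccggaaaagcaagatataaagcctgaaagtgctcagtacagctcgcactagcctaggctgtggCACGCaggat
In Ahrr the matches began 142, 117 and 57 bases before the start. Those of Cyp1b1 began 81 and 20 bases before it, the farther one on the opposite strand, and that of Nqo1 began 10 bases before it, also on the opposite strand. The Cyp1b1 window lies inside the annotated span of the gene, which begins at base 21093927. A match describes the letters of the window only.

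By mean Pearson r over all probe sets, 6 of the 12 arrays lay closer to another group than to their own, among them all 3 of the 3-MC group. E2 + 3-MC rat 1 had 0.980 with its own group and 0.982 with E2. 3-MC rats 1 and 3 had 0.973 and 0.969 with their own group and 0.975 and 0.980 with E2 + 3-MC, while 3-MC rat 2 had 0.968 with its own group and 0.974 with vehicle. Vehicle rat 1 had 0.973 with its own group and 0.975 with 3-MC, and vehicle rat 3 had 0.967 with its own group and 0.980 with E2 + 3-MC. Results without single rats follow those with all 12.

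Cyp1b1, Nqo1 and Ahrr had higher means in both groups given 3-MC than in both groups not given it, but the rats of a group differed widely. In the comparison of E2 + 3-MC with E2, their fitted changes were 3.06-fold, 2.55-fold and 2.42-fold. The Ahrr change was measured against low values. Its log2 values in E2 rats 1 and 3, 5.37 and 5.45, lay below the filter's threshold of 5.69. That of E2 rat 2, 5.78, lay above it. Ahr, Arnt, Cyp1a2 and Aldh3a1 had group means within a narrow range. None of the 7 tested members passed limma in any of the 7 comparisons, and the background share of probe sets that passed was 0% for E2 + 3-MC against E2, 0% for 3-MC against vehicle and 1.58% for E2 against vehicle. At an unadjusted p below 0.05 in limma, 3 of the 7 members were higher with E2 + 3-MC than with E2, against 5.99% of all probe sets. By the methods' t-test 2 were, but the share of all probe sets was not computed for that test. For 3-MC against vehicle the count was 0 by both tests, against 4.24% of all probe sets in either direction in limma. It was also 0 in limma for E2 against vehicle (11.7% of all probe sets), E2 + 3-MC against vehicle (9.72%), E2 + 3-MC against 3-MC (5.03%) and the interaction (4.42%).

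**Figure D1:**
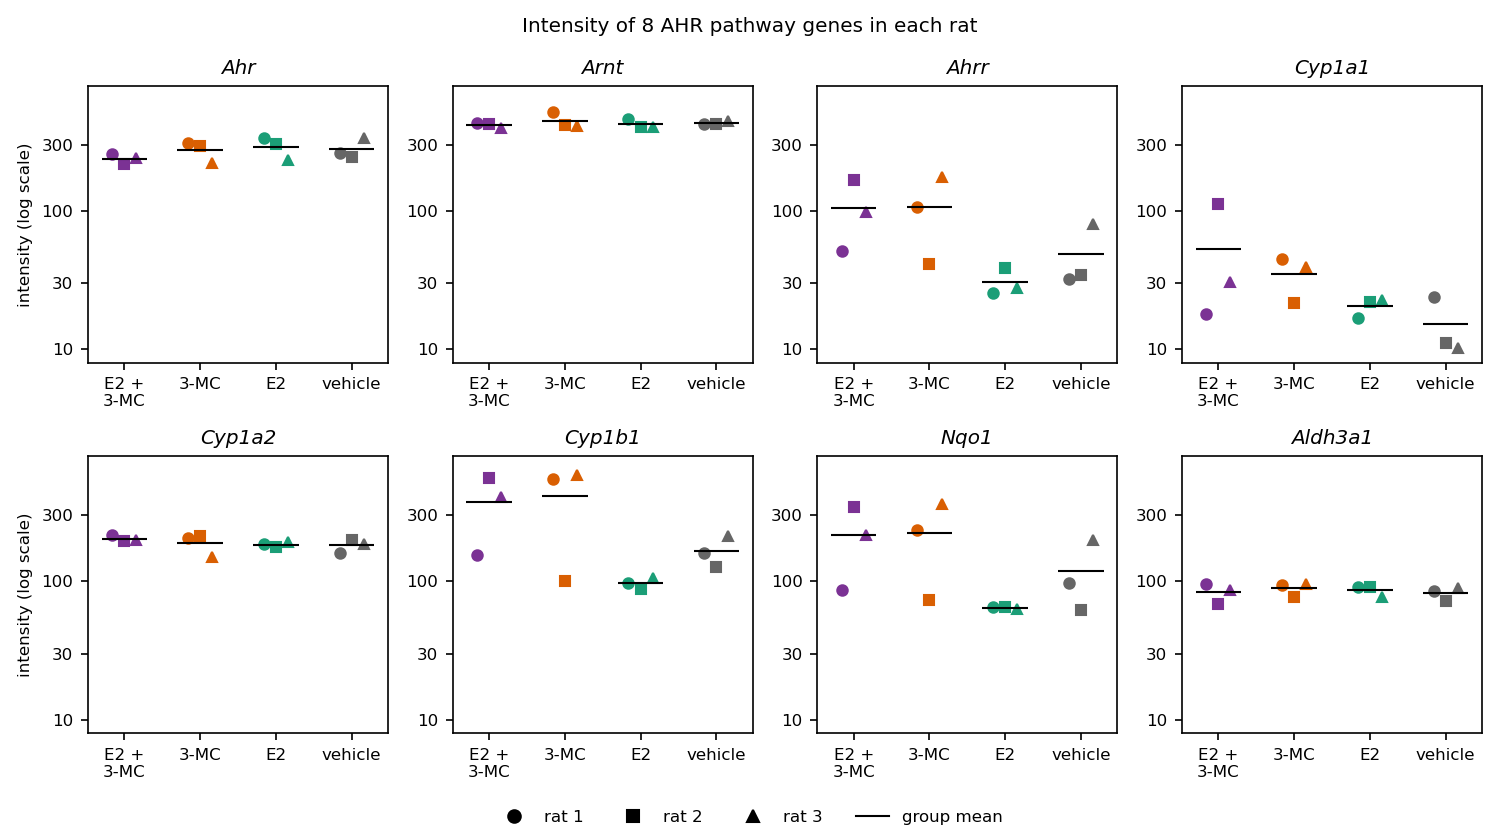
Intensity on a log scale of the 8 measured AHR pathway genes in each rat, with 1 symbol per rat and a line at the mean of the 3 rats, for the E2 + 3-MC, 3-MC, E2 and vehicle groups. Ahrr, Cyp1b1 and Nqo1 spread widely in the groups given 3-MC, with 3-MC rat 2 and E2 + 3-MC rat 1 the lowest of their groups. Ahrr and Nqo1 also spread widely among the vehicle rats. Ahr, Arnt, Cyp1a2 and Aldh3a1 stay within narrow bands.

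Ahr, read by probe set 10889660 and lying on chromosome 6 (GRCr8, 57961423 to 57998901), had intensities of 258, 217 and 241 in E2 + 3-MC rats, 310.2, 294 and 222 in 3-MC rats, 334, 303 and 234 in E2 rats, and 264, 246 and 336 in vehicle rats. The highest of the 12 values belonged to a vehicle rat and the groups overlapped in each of the 5 comparisons between groups. The log2 change was -0.26 (SE 0.17) for E2 + 3-MC against E2, -0.04 (SE 0.17) for 3-MC against vehicle and 0.04 (SE 0.17) for E2 against vehicle, and the smallest adjusted p over the 7 comparisons was 0.699 in limma.

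Arnt, read by probe set 10817396 and lying on chromosome 2 (185686703 to 185745546), encodes the partner that the AHR shares with the hypoxia-inducible factors. Its values were 432, 422 and 399 in E2 + 3-MC rats, 519, 419.5 and 411 in 3-MC rats, 459, 404 and 407 in E2 rats, and 428, 425 and 449.9 in vehicle rats. Only 3-MC rat 1 stood above the rest, and the groups overlapped. The log2 changes lay between -0.10 (SE 0.12) for E2 + 3-MC against 3-MC and 0.04 (SE 0.12) for 3-MC against vehicle.

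Ahrr, read by probe set 10702492 and lying on chromosome 1 (30822219 to 30917251), encodes a protein that competes with the AHR for ARNT and is itself a target of the receptor. Its intensities were 51.0, 168 and 98.4 in E2 + 3-MC rats, against 25.5, 38.8 and 27.7 in E2 rats. The lowest E2 + 3-MC rat, rat 1, still lay above the highest E2 rat, so the groups did not overlap. The means were 106 ± 58.6 with E2 + 3-MC and 30.7 ± 7.13 with E2 (SD, n = 3 each). Their ratio was 3.44, above the fitted 2.42-fold change. At intensities as low as those of the E2 rats, the constant added before log2 was taken makes a fitted change smaller. Of the 8 measured members, 4 (Ahrr, Cyp1a2, Cyp1b1 and Nqo1) were higher with E2 + 3-MC than with E2 without overlap, as were 12% of all probe sets. For 3-MC against vehicle, E2 + 3-MC against vehicle and E2 + 3-MC against 3-MC, 0 of 8 members were higher without overlap, against 4.71%, 10.5% and 4.48% of all probe sets. The fitted log2 change of Ahrr was 1.27 (SE 0.42), with a 95% interval of 0.37 to 2.17 and an adjusted p of 0.466 in limma. Without E2, Ahrr had 106, 41.3 and 175 in 3-MC rats, against 32.2, 34.3 and 80.3 in vehicle rats. Here the groups overlapped, because 3-MC rat 2 lay near the lower vehicle rats and vehicle rat 3 lay above 3-MC rat 2. The log2 change was 0.84 (SE 0.42), with an adjusted p of 0.92 in limma.

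Cyp1b1, read by probe set 10887947 and lying on chromosome 6 (21093927 to 21103091), encodes the CYP1 enzyme that hydroxylates estradiol at the 4 position. It had 154, 560.2 and 407 in E2 + 3-MC rats, against 97.7, 88.3 and 107 in E2 rats. All 3 E2 + 3-MC rats were above all 3 E2 rats, although rat 1 was well below rats 2 and 3. Against the E2 mean the 3 rats stood at 1.58-, 5.74- and 4.18-fold. The means were 374 ± 205 with E2 + 3-MC and 97.5 ± 9.14 with E2 (SD, n = 3 each), and the log2 change was 1.61 (SE 0.53), with a 95% interval of 0.46 to 2.76 and an adjusted p of 0.466 in limma. Without E2 the values were 553, 101 and 588 in 3-MC rats, against 161, 127 and 211 in vehicle rats. The 3-MC group held both the highest of the 12 arrays and one below every vehicle rat, at 3.33-, 0.607- and 3.53-fold of the vehicle mean for rats 1, 2 and 3. The log2 change was 0.94 (SE 0.53), with an interval of -0.21 to 2.08 and an adjusted p of 0.92. With E2 alone all 3 rats were below all 3 vehicle rats, as were 8.05% of all probe sets, with means of 97.5 ± 9.14 for E2 and 166 ± 42.3 for vehicle. That log2 change, -0.66 (SE 0.53), had an adjusted p of 0.722 in limma. Cyp1b1 was the 1 member with an unadjusted p below 0.05 by the methods' t-test there, a test for which no share of all probe sets was computed.

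Nqo1, read by probe set 10810867 and lying on chromosome 19 (52205374 to 52220267), encodes a quinone reductase that both the AHR and NRF2 can induce. It had 87.1, 346 and 215 in E2 + 3-MC rats, against 64.8, 65.1 and 63.1 in E2 rats. The E2 rats lay close together, and all 3 E2 + 3-MC rats were above them. The means were 216 ± 129.7 with E2 + 3-MC and 64.3 ± 1.06 with E2 (SD, n = 3 each), and the log2 change was 1.35 (SE 0.51) with an adjusted p of 0.498 in limma. Without E2 the values were 234, 72.8 and 361 in 3-MC rats, against 97.1, 62.3 and 199.8 in vehicle rats. The 2 highest 3-MC rats exceeded all vehicle rats and rat 2 lay among them, so the groups overlapped. The log2 change was 0.71 (SE 0.51), with an adjusted p of 0.92.

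Cyp1a1, read by probe set 10910376 and lying on chromosome 8 (66991940 to 66998014), encodes the enzyme most often used to gauge AHR activation. Its values were 18.0, 111 and 30.6 in E2 + 3-MC rats, 44.5, 21.6 and 39.4 in 3-MC rats, 16.9, 21.8 and 22.7 in E2 rats, and 24.0, 11.0 and 10.2 in vehicle rats. The 111 of E2 + 3-MC rat 2 lay above its array's median of 96.4. All other values lay below the lowest array median, 85.7. E2 + 3-MC rat 2 stood far above the other 11 rats, while E2 + 3-MC rat 1 lay among the E2 rats and 3-MC rat 2 among the vehicle rats. The means were 53.4 ± 50.7 with E2 + 3-MC, 35.2 ± 12 with 3-MC, 20.5 ± 3.13 with E2 and 15.1 ± 7.72 with vehicle (SD, n = 3 each). In the limma fit without the filter, the log2 change was 0.94 (SE 0.37) for E2 + 3-MC against vehicle (adjusted p = 0.467), 0.69 (SE 0.37) for E2 + 3-MC against E2 (adjusted p = 0.625) and 0.72 (SE 0.37) for 3-MC against vehicle (adjusted p = 0.929). At these intensities the added 16 makes a log2 change smaller. A mean of log2 values also gives less weight to the 111 of E2 + 3-MC rat 2 than a mean of intensities does.

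Cyp1a2, read by probe set 10917808, lies on chromosome 8 at 66971261 to 66978149, 13790 bases from Cyp1a1. Its values were 217, 195 and 198 in E2 + 3-MC rats, 205, 213 and 149 in 3-MC rats, 185, 176 and 191 in E2 rats, and 161, 199 and 187 in vehicle rats. The E2 + 3-MC and E2 groups did not overlap, but the means were 203 ± 11.8 with E2 + 3-MC and 184 ± 7.56 with E2, a log2 change of 0.13 (SE 0.14) (adjusted p = 0.829 in limma). Aldh3a1, read by probe set 10734228, encodes an aldehyde dehydrogenase that AHR ligands induce in rat liver. On chromosome 10 (46392464 to 46402151), it had 96.4, 69.2 and 86.0 in E2 + 3-MC rats, 94.4, 77.1 and 95.6 in 3-MC rats, 91.6, 91.7 and 77.5 in E2 rats, and 85.8, 71.6 and 88.9 in vehicle rats. Its groups overlapped in every comparison, with a log2 change of -0.05 (SE 0.14) for E2 + 3-MC against E2 and 0.10 (SE 0.14) for 3-MC against vehicle.

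**Figure D2:**
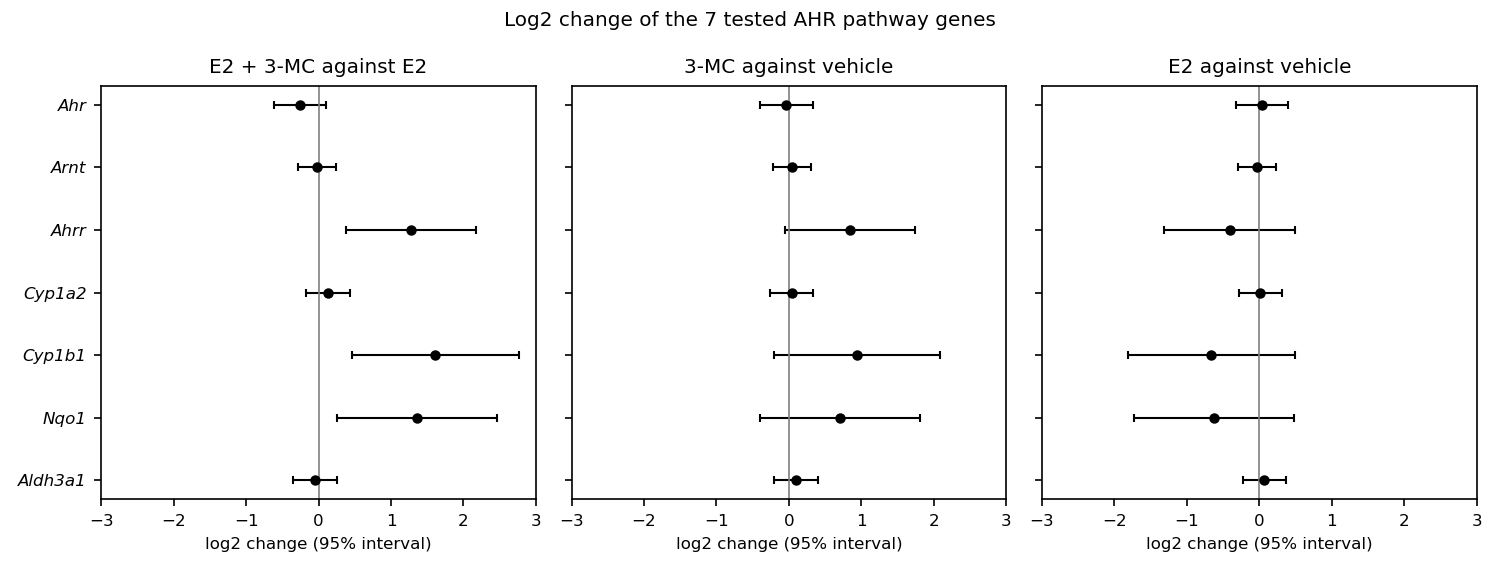
Log2 change of the 7 tested AHR pathway genes, each with its 95% interval from limma, for E2 + 3-MC against E2, 3-MC against vehicle and E2 against vehicle. The intervals of Ahrr, Cyp1b1 and Nqo1 lie above 0 for E2 + 3-MC against E2 (log2 changes of 1.27, 1.61 and 1.35) and cross 0 in both of the other comparisons, and no gene passed after adjustment.

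Whether the change with 3-MC depended on E2 was asked with the interaction term. It was 0.68 (SE 0.75) for Cyp1b1, 0.64 (SE 0.72) for Nqo1 and 0.44 (SE 0.59) for Ahrr on the log2 scale, and no member passed (smallest adjusted p = 0.982 in limma, background share 0%). The intervals were wide, such as -0.95 to 2.30 for Cyp1b1. E2 + 3-MC set directly against 3-MC gave 0.02 for Cyp1b1, with an interval of -1.13 to 1.16, and no member passed there either, against 0.111% of all probe sets. With E2 + 3-MC against vehicle, where 0.163% of all probe sets passed and no member did, the log2 changes were 0.95 (SE 0.53) for Cyp1b1, 0.86 (SE 0.42) for Ahrr and 0.73 (SE 0.51) for Nqo1. Averaged over rats with and without E2, 3-MC gave 1.27 (SE 0.38) for Cyp1b1, 1.06 (SE 0.30) for Ahrr and 1.03 (SE 0.36) for Nqo1. None passed limma (adjusted p = 0.419, 0.419 and 0.442), nor did any probe set (0%). By the size of this averaged change they took places 50, 92 and 102 from the top among 23371 probe sets. At an unadjusted p below 0.05 they were the 3 of 7 members that were higher, against 7.71% of all probe sets.

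These values depended on single rats. Without 3-MC rat 2, the averaged log2 change of Cyp1b1 became 1.66 and passed (adjusted p = 0.0491 in limma), a call that 0.0342% of all probe sets shared in the higher direction, while Ahrr (1.29, adjusted p = 0.0702) and Nqo1 (1.33, adjusted p = 0.0913) did not. Without the same rat, 3-MC against vehicle gave 1.71 for Cyp1b1, 1.31 for Ahrr and 1.31 for Nqo1 (adjusted p = 0.478 for each). The Cyp1b1 interaction then changed sign, to -0.10, and E2 + 3-MC against 3-MC gave -0.76 for Cyp1b1. Without E2 + 3-MC rat 1, E2 + 3-MC against E2 gave 2.12 for Cyp1b1, 1.65 for Ahrr and 1.85 for Nqo1 (adjusted p = 0.192, 0.209 and 0.24). Leaving out some of the other rats gave smaller changes. Without E2 + 3-MC rat 2, E2 + 3-MC against E2 gave 1.24 for Cyp1b1, 0.92 for Ahrr and 0.94 for Nqo1 (adjusted p = 0.794 for each). For 3-MC against vehicle the values were 0.53 for Cyp1b1, 0.44 for Ahrr and 0.26 for Nqo1 without 3-MC rat 3, and 0.57 for Cyp1b1, 0.76 for Ahrr and 0.56 for Nqo1 without 3-MC rat 1. Leaving out a vehicle rat gave 0.93 for Cyp1b1, 0.66 for Ahrr and 0.64 for Nqo1 without rat 1, 0.77 for Cyp1b1, 0.69 for Ahrr and 0.38 for Nqo1 without rat 2, and 1.11 for Cyp1b1, 1.16 for Ahrr and 1.11 for Nqo1 without rat 3. No member passed in limma when 1 of these last 6 rats was left out. When limma was fitted on the E2 + 3-MC and E2 arrays alone, Cyp1b1 and Ahrr passed (adjusted p = 0.0305 and 0.0391), Nqo1 did not (adjusted p = 0.0553), and 1.15% of all probe sets passed as higher.

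The same rats were high and low for several members. For Cyp1b1, Nqo1 and Ahrr the 4 highest arrays were those of 3-MC rats 1 and 3 and of E2 + 3-MC rats 2 and 3, in the order 3-MC rat 3, E2 + 3-MC rat 2, 3-MC rat 1 and E2 + 3-MC rat 3, and vehicle rat 3 came 5th. The same 4 arrays were the highest for Cyp1a1, in another order. Over the 12 arrays the log2 values of Ahrr and Nqo1 had a Pearson r of 0.972, Cyp1b1 and Nqo1 of 0.961, and Ahrr and Cyp1b1 of 0.942. After each group's mean was removed the 3 values were 0.964, 0.934 and 0.886. Cyp1a1 followed less closely, with r = 0.723 with Cyp1b1, 0.708 with Ahrr and 0.687 with Nqo1. Cyp1a2 and Aldh3a1 did not follow, with r = -0.16 and 0.09 with Cyp1b1. Ahr had r = -0.41 with Cyp1b1 and 0.58 with Arnt. These correlations describe 12 arrays in 4 groups that share their treatment.

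Levels of the myeloid and lymphocyte marker lists were high and low in the same rats, although the myeloid marker Cd14 differed from its list with E2. All 6 myeloid markers (Cd68, Csf1r, Itgam, Cd14, Mrc1 and Adgre1) and 4 of the 6 lymphocyte markers (Cd3e, Cd3g, Cd4 and Cd8a) were measured, each above the filter on low values. The level of a list in a rat was the median of its genes' log2 differences from the vehicle mean. The myeloid level was 0.03, 0.49 and 0.60 in E2 + 3-MC rats 1, 2 and 3, -0.10 in 3-MC rat 2 but 0.79 and 0.82 in 3-MC rats 1 and 3, -0.50, -0.47 and -0.15 in E2 rats, and -0.23, -0.50 and 0.76 in vehicle rats. The lymphocyte level was 0.29, 1.53 and 0.83 in E2 + 3-MC rats, 0.96, 0.05 and 0.37 in 3-MC rats, -0.55, -0.15 and -0.23 in E2 rats, and -0.08, -0.28 and 0.36 in vehicle rats. In both lists the lowest rat given 3-MC alone was rat 2, the lowest given E2 + 3-MC was rat 1, and the highest vehicle rat was rat 3. The summed myeloid intensity ran over 3300.5 to 4616 with E2 + 3-MC, 2730 to 4917 with 3-MC, 2640 to 3212 with E2 and 2013 to 4109 with vehicle. Cd14 had the highest mean intensity of the myeloid list, 1448. Its means were 1690 ± 391 with E2 + 3-MC and 1387 ± 247 with 3-MC. They were 1748 ± 232 with E2 and 968 ± 146 with vehicle (SD, n = 3 each). Cd14 was the 1 myeloid marker that passed with E2 against vehicle, as did 1.58% of all probe sets. Its log2 change there was 0.84 (adjusted p = 0.0370 in limma), while the median of the myeloid list was -0.36. The summed lymphocyte intensity ran over 549 to 866 with E2 + 3-MC, 499.7 to 813 with 3-MC, 343 to 425 with E2 and 361 to 647 with vehicle. Cd4 had the highest mean intensity of that list, 321.5, and so weighed most in the sum. Its means were 311 ± 25.3 with E2 + 3-MC, 387 ± 69.6 with 3-MC, 258 ± 43.6 with E2 and 330 ± 93.2 with vehicle. Unlike Cd3e, Cd3g and Cd8a, Cd4 had a lower mean with E2 + 3-MC than with vehicle. No marker of either list passed with E2 + 3-MC against E2, while 3 of 6 myeloid and 3 of 4 lymphocyte genes were higher at an unadjusted p below 0.05, against 5.99% of all probe sets.

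**Figure D3:**
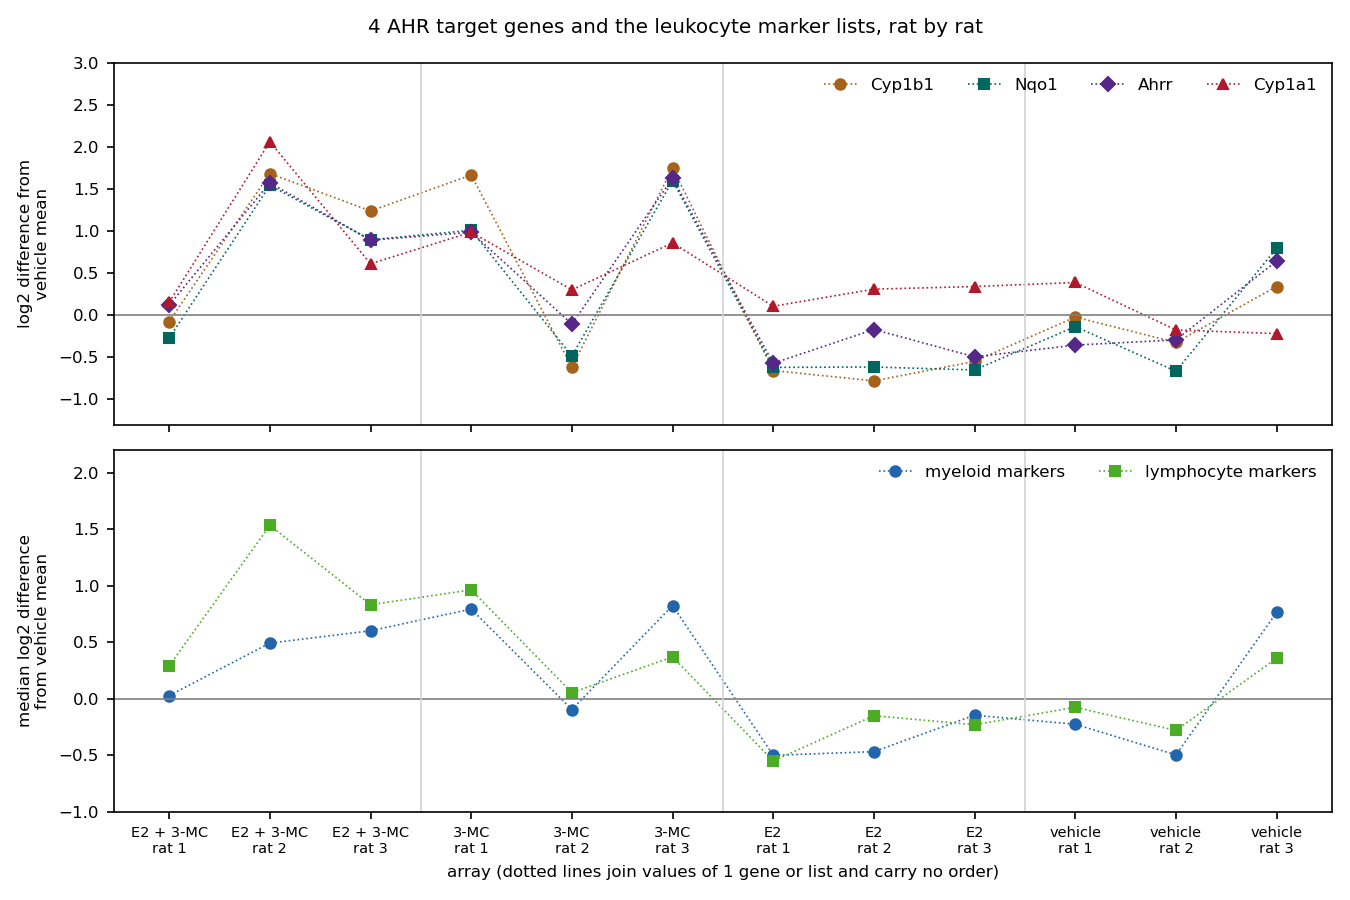
Upper panel, log2 difference from the vehicle mean of Cyp1b1, Nqo1, Ahrr and Cyp1a1 in each of the 12 rats. Lower panel, the median log2 difference of the myeloid and the lymphocyte markers in the same rats, where 3-MC rat 2 (-0.10 and 0.05) and E2 + 3-MC rat 1 (0.03 and 0.29) are the lowest of their groups in both lists.

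Over the 12 arrays the myeloid level had a Pearson r of 0.918 with Nqo1, 0.887 with Ahrr and 0.876 with Cyp1b1, and of 0.863, 0.806 and 0.777 once group means were removed. For Cyp1a1 the value was 0.469 with the myeloid level and 0.803 with the lymphocyte level. The lymphocyte level had r = 0.864 with Ahrr, 0.857 with Cyp1b1 and 0.844 with Nqo1. Vehicle rat 3 received no 3-MC and had a myeloid level of 0.76, close to the 0.79 and 0.82 of 3-MC rats 1 and 3. Its Cyp1b1 was 211, against 553 and 588 in those 3-MC rats, its Nqo1 was 199.8, against 234 and 361, and its Cyp1a1 was 10.2, against 44.5 and 39.4. In a limma fit with the mean of the myeloid markers, Cd14 included, as a covariate, chosen after the data were seen, the averaged log2 changes were 0.41 for Cyp1b1, 0.38 for Ahrr and 0.13 for Nqo1 (unadjusted p = 0.185, 0.124 and 0.588). With the lymphocyte markers in their place they were -0.22, -0.15 and -0.50, below 0 for all 3. Which cells carried the transcripts was not tested.

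**Figure D4:**
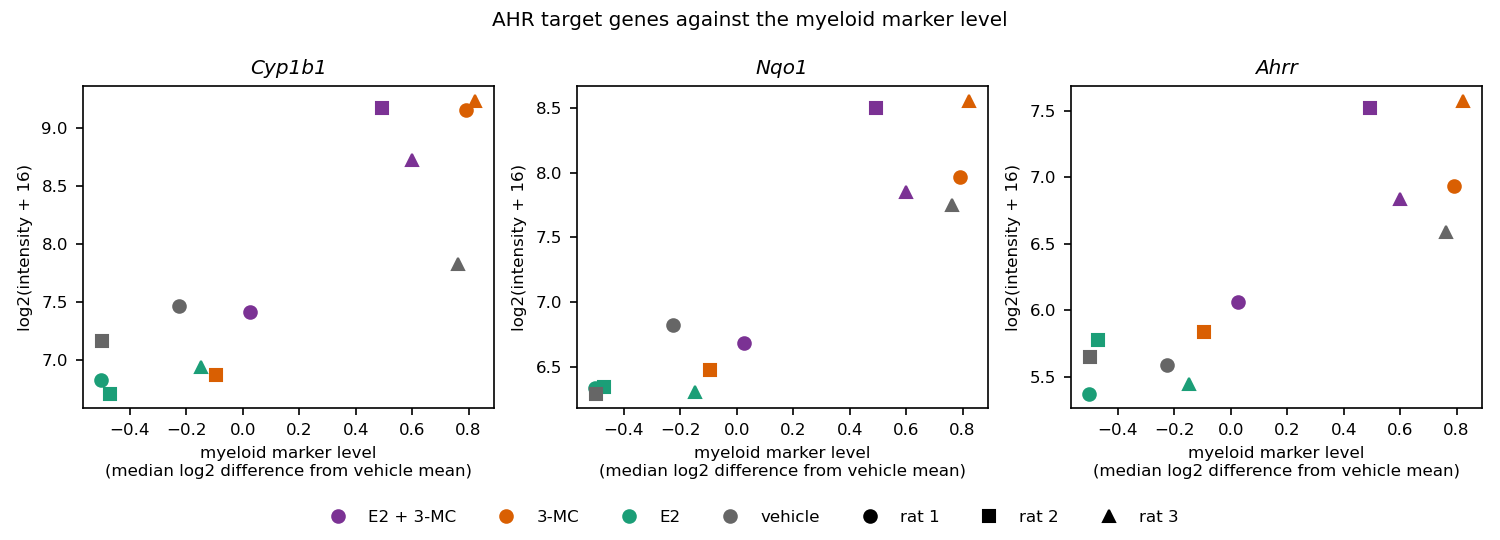
Log2(intensity + 16) of Cyp1b1, Nqo1 and Ahrr against the myeloid marker level (median log2 difference from the vehicle mean), 1 point per rat, with colour for the group and symbol for the rat. Points run from low to high on both axes (r = 0.876, 0.918 and 0.887 over 12 arrays), and vehicle rat 3, at a myeloid level of 0.76, lies below 3-MC rats 1 and 3.

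Skeletal muscle markers differed between arrays by far more, with summed intensities of 685 to 2157 in E2 + 3-MC rats, 521 to 26191 in 3-MC rats, 1095 to 6523 in E2 rats and 488 to 35126 in vehicle rats. Over the 12 arrays the muscle level had r = -0.334 with Cyp1b1, -0.480 with Nqo1 and -0.508 with Ahrr. Once group means were removed these values were -0.433, -0.643 and -0.695. With the mean of the muscle markers as a covariate the averaged log2 changes were 1.17 for Cyp1b1, 0.93 for Ahrr and 0.89 for Nqo1. Of the markers for the labelled tissue, all 12 luminal epithelial, all 6 measured basal and myoepithelial and all 9 adipocyte genes were above the filter. The basal level was 0.15, -0.25 and 0.10 in E2 + 3-MC rats, -0.23, -0.02 and -0.53 in 3-MC rats, 0.46, 0.41 and 0.18 in E2 rats, and -0.13, -0.04 and 0.07 in vehicle rats. Its summed intensity ran over 5725 to 6374 with E2 + 3-MC, 5608 to 6645 with 3-MC, 6361 to 8157 with E2 and 6188 to 7141 with vehicle. Over the 12 arrays it had r = -0.759 with Cyp1b1, -0.723 with Nqo1 and -0.717 with Ahrr, and -0.686, -0.620 and -0.625 once group means were removed. The luminal level had r = -0.414, -0.478 and -0.431 with Cyp1b1, Nqo1 and Ahrr, and its summed intensity ran over 6541 to 8463 with E2 + 3-MC, 5619 to 7713 with 3-MC, 8930.2 to 11300.3 with E2 and 5509 to 6263 with vehicle. With E2 + 3-MC against E2, 0 of either list passed, and 3 of 6 basal and 7 of 12 luminal genes were lower at an unadjusted p below 0.05, against 2.77% of all probe sets. The part of these cells in the results was not tested. Array medians ran from 85.7 to 109.5.

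The rest of the pathway was read from 4 lists, and 1 gene of them passed in any comparison. Of all probe sets, 1.58% passed for E2 against vehicle, 0.163% for E2 + 3-MC against vehicle and 0.111% for E2 + 3-MC against 3-MC. The share was 0% in the other comparisons, so few or no passing genes would be found in lists of this size at these shares. Of the receptor complex, 4 genes were tested and 0 passed. The smallest p values belonged to Ptges3, which encodes p23, with means of 292 ± 32.9 in E2 + 3-MC rats, 333 ± 33.0 in 3-MC rats, 363 ± 24.7 in E2 rats and 288 ± 46.4 in vehicle rats (SD, n = 3 each), and to the kinase gene Src, with 186 ± 12 in E2 rats and 153 ± 18.3 in vehicle rats. For E2 against vehicle the adjusted p was 0.372 for Ptges3 and 0.476 for Src in limma. Among 10 dimer partners and related factors, 10 were tested and 0 passed. Npas2, a clock factor, had 317 ± 74.7 in E2 + 3-MC rats and 489.5 ± 30.7 in E2 rats, a log2 change of -0.62 (adjusted p = 0.397 in limma). Epas1, which encodes the hypoxia-inducible factor HIF-2α, had 914 ± 63.1 in E2 rats and 1232 ± 46.7 in vehicle rats, a log2 change of -0.43 (adjusted p = 0.0914). Among 12 co-activators and co-repressors, 10 were tested and 0 passed. The smallest p values were those of the co-activator Ncoa3 (averaged log2 change 0.18, adjusted p = 0.644) and the chromatin remodeller Smarca4, with means of 416 ± 42.8 in E2 + 3-MC rats and 487 ± 86.3 in E2 rats.

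Of 28 other genes described as AHR targets, 22 were tested. With 3-MC against vehicle 0 passed and 0 had an unadjusted p below 0.05, against 4.24% of all probe sets, and the median log2 change was 0.18, beside 0.06 over all probe sets. With E2 + 3-MC against E2 0 passed, 3 were higher and 1 was lower at an unadjusted p below 0.05, against 5.99% and 2.77% of all probe sets. The median was 0.16, beside 0.05 over all. The 1 gene that passed was Areg, which encodes amphiregulin, an epidermal growth factor receptor ligand and a mediator of estrogen action in the gland. It rose with E2, to 532 ± 37.4 in E2 rats, against 38.2 ± 16 in vehicle rats (log2 change 3.38, adjusted p = 4.0e-05 in limma), and was also higher in E2 + 3-MC rats, at 447 ± 219, than in 3-MC rats, at 58.1 ± 14.4 (log2 change 2.56, adjusted p = 0.00169). The 3-MC and vehicle means differed by 0.48 on the log2 scale (adjusted p = 0.92).

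**Figure D5:**
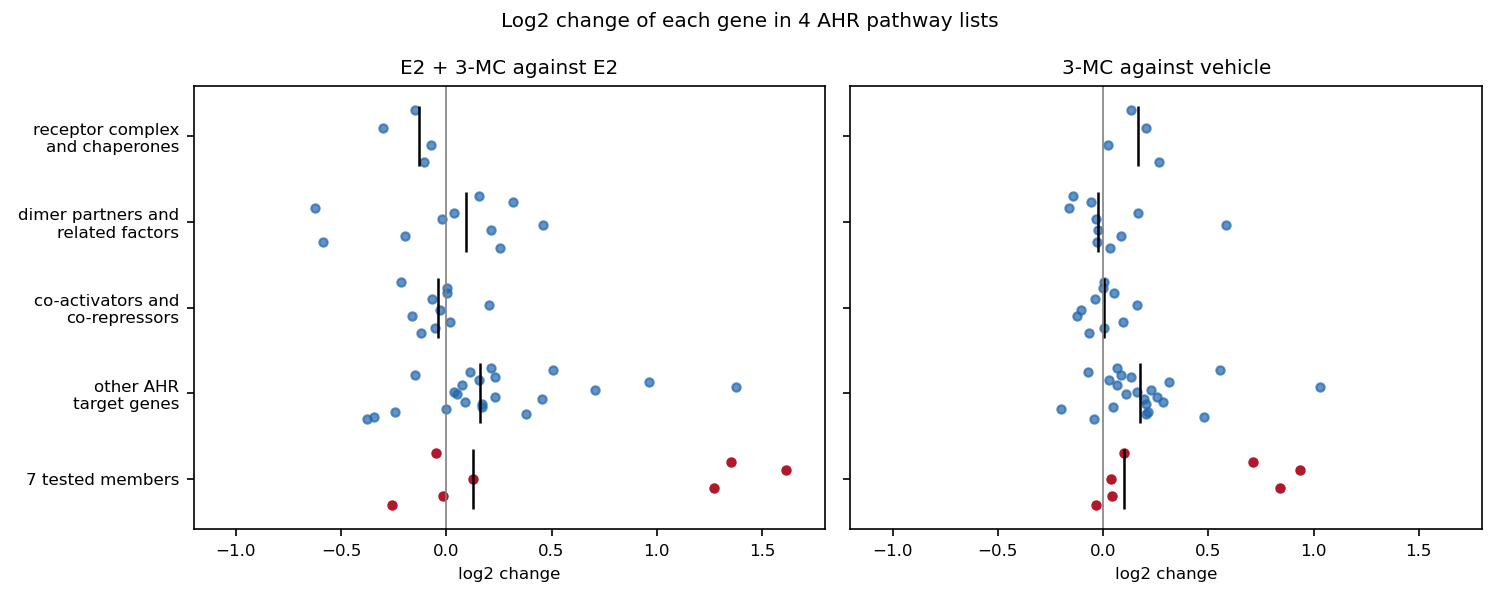
Log2 change of each tested gene of 4 AHR pathway lists and of the 7 tested members (bottom row, red), with a bar at each row's median, for E2 + 3-MC against E2 and for 3-MC against vehicle. The medians of the other AHR target genes were 0.16 and 0.18, and Cyp1b1, Nqo1 and Ahrr stand at the right of the bottom row in both panels.

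The genes most like Cyp1a1 over the 12 arrays, among 13139 compared, were Runx3 (r = 0.90), Ero1a (0.871), Klrb1c (0.865), Mdm2 (0.862) and Ak4 (0.852). Runx3, a transcription factor of lymphocytes, had means of 121 ± 37.6 in E2 + 3-MC rats, 97.3 ± 16.8 in 3-MC rats, 70.6 ± 5.81 in E2 rats and 71.4 ± 4.96 in vehicle rats. Klrb1c is a receptor gene of natural killer cells. Those most like Ahr were Adamts1 (0.895), a secreted metalloprotease gene, Tnks (0.886), Rnf34 (0.883), Vps26b (0.878) and Rfx3 (0.874). Adamts1 had its lowest mean in E2 + 3-MC rats, 362 ± 19.3, with 509 ± 84.3 in 3-MC rats, 518 ± 142 in E2 rats and 498 ± 103 in vehicle rats.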

How the data were processed

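Mammary gland RNA of 12 rats had been hybridized to Affymetrix Rat Gene 1.0 ST arrays. Per the labels and methods, the authors summarized the probe signals with PLIER, and the deposited table holds linear intensity values for 29214 probe sets. The submitters' notes name Expression Console, while the methods name GeneSpring with quantile normalization and a baseline set to the controls. The deposited values carry no such baseline, and whether quantiles were matched at the probe level is not given in the sources used here. They were used as they stand (array medians 85.7 to 109.5). From these values, log2(intensity + 16) was computed, and 23371 probe sets above the 20th percentile of mean log2 values were fitted in R 4.3.3 with limma 3.58.1, as 1 model of 4 groups with two-sided contrasts. Further contrasts were the effect of 3-MC averaged over both E2 states and the interaction. Intensities are means ± SD of 3 rats. Number of arrays, not depth, limits the precision, and an exact permutation test of 3 rats against 3 cannot go below p = 0.1. Of the probe sets, 15310 carry 1 gene symbol, 323 several and 13581 none in the platform annotation used. Positions and promoter windows are those of RefSeq GRCr8.

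The members and lists were chosen with earlier results of these data known. Named genes were all 9 members, from each pathway list the genes that passed or else the 2 with the smallest p, and the 5 genes with the highest Pearson r to Cyp1a1 and to Ahr. Rats carry numbers 1 to 3 in each group. Deviations from group means correlated between equal numbers at 0.341, 0.442 and 0.564 for vehicle and 3-MC. In no other pair of groups did all 3 exceed 0.1. The labels name no pairs, and the paper states that rats were assigned at random. Skeletal muscle levels of rats 1, 2 and 3 were 1.83, 2.22 and -3.96 with vehicle and 1.17, 1.77 and -3.81 with 3-MC. Their part in the correlation was not tested. From the values alone, the rat number was tried as a block over all 4 groups. Alternatives were other filters, pseudocounts, scalings, fold thresholds and limma settings, a fit of the compared groups only, the methods' t-test, marker covariates, the block and leaving out each rat. The procedure was also tested on simulated data, whose settings and outcome are not given here. Plots came from matplotlib 3.10.9 under Python 3.11.15.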

Additional observations from a re-analysis of the deposited data

How the results depend on the processing

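The number of members that passed stayed at 0 in every comparison under the alternatives tried, with 2 exceptions. Fitting the compared groups only gave 2 for E2 + 3-MC against E2 (Cyp1b1 and Ahrr), and leaving out each rat in turn gave 0 to 1 for 3-MC averaged over both E2 states, the 1 being Cyp1b1 without 3-MC rat 2. The cause of either was not tested. With the rat number as a replicate block, 0 members passed in each comparison, and the averaged adjusted p was 0.324 for Cyp1b1, 0.31 for Ahrr and 0.35 for Nqo1 in limma, so the block changed no call. For these 3 genes, the log2 changes of E2 + 3-MC against E2 and of the averaged comparison kept their sign in all 148 values from the other settings, both rescalings included, and lost it in 6 of 12 values from the fits with a leukocyte covariate (chosen after the data were seen), all with the lymphocyte markers. Over all members and comparisons, 70 of 1232 values had the other sign (leukocyte covariates aside), none of them passing. The largest change that lost its sign in this way was the Cyp1b1 interaction, 0.68 with all 12 rats, when 3-MC rat 2 was left out. Each member had 1 probe set, so the alternative of another probe set gave no value. The filter at the 50th percentile left out Ahrr and Aldh3a1. Cyp1a1, low by its mean log2 value, was fitted only without the filter.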

Other observations

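The genes whose log2 values were most like those of Cyp1b1 over the 12 arrays were looked up after its values had been seen. Apart from Nqo1 (r = 0.961) they were Coro1a (0.963), Slc11a1 (0.962), Pstpip1 (0.955) and Fcgr2b (0.953), all known from leukocytes. Coro1a, an actin regulator, had 559 ± 317 in E2 + 3-MC rats, 515 ± 305 in 3-MC rats, 139 ± 8.13 in E2 rats and 255 ± 182 in vehicle rats (SD, n = 3 each). Slc11a1, a metal transporter of macrophage phagosomes, had 291 ± 203 in E2 + 3-MC rats, 225 ± 182 in 3-MC rats, 32.9 ± 10.7 in E2 rats and 96.2 ± 76.7 in vehicle rats. Fcgr2b, an inhibitory receptor for immunoglobulin G, had 223 ± 93.6 in E2 + 3-MC rats, 259 ± 193 in 3-MC rats, 45.7 ± 6.66 in E2 rats and 128 ± 101 in vehicle rats.

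Il6 and Ptgs2, 2 inflammatory genes of the list of other AHR targets, were also singled out after their values were seen. Il6, an interleukin gene, had 89.2 ± 63.7 in E2 + 3-MC rats and 17.5 ± 2.27 in E2 rats, and 72.2 ± 44.4 in 3-MC rats against 22.4 ± 3.20 in vehicle rats. Its averaged log2 change with 3-MC was 1.2 (unadjusted p = 0.00413, adjusted p = 0.419 in limma). Ptgs2, which encodes cyclooxygenase-2, had 141 ± 73.0 in E2 + 3-MC rats and 57.3 ± 7.31 in E2 rats, with an averaged log2 change of 0.64 (adjusted p = 0.483). Here too the groups overlapped, with the lowest E2 + 3-MC rat at 56.8 and E2 rats at 50.2 to 64.8. Neither passed.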
